A study of Mus musculus with 23 samples.

Results

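The vehicle baseline of the TM4 line consisted of the 4 arrays of cells given 1% DMSO alone, chosen by their titles, out of 23 arrays in the series. TM4 is an immortalized line from mouse testis that the labels describe as Sertoli cells, and every array is therefore of the same line. The cells were plated, left to adhere, and kept for 48 hr with the vehicle. Total RNA was labelled with Cy3 and hybridized to a 1-colour mouse array. The other 19 arrays were of the same cells given a plasticizer at 1e-04 M in the same vehicle for the same time. These were mono(2-ethylhexyl) phthalate (MEHP), DINCH, dioctyl maleate (DOM) and BDB with 4 arrays each, and dioctyl succinate (DOS) with 3. They were used here only to show where the baseline moved.

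Sertoli cells are the somatic cells of the seminiferous tubule that surround and feed the germ cells. In the fetal gonad they are specified by transcription factors such as SRY, SOX9 and WT1, and they secrete anti-Müllerian hormone. In the postnatal testis they respond to follicle-stimulating hormone and testosterone, seal the blood-testis barrier with tight junctions, export lactate to germ cells, and rest on a basement membrane shared with peritubular myoid cells. Lines kept in culture may retain only some of these properties.

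A level is given here as the log2 of a probe's signal relative to the 75th percentile of its array, so that 0 is the 75th percentile itself. A gene was called detected when at least 1 of its probes was well above background, by the scanner software's flag, on all 4 DMSO arrays. The lowest level that carried this flag lay between -4.57 and -4.21 on the 4 arrays. The highest level without it lay between -4.18 and -3.63, so flagged and unflagged levels overlapped. A gene without the flag is described as not well above background, without a level. A gene said to be on no array was so on the 4 DMSO arrays, unless the treated arrays or the series are named. Different probes bind with different strength, so levels of different genes were not set against each other. Unless stated otherwise, a level is that of the gene's brightest probe, as mean ± SD of n = 4 arrays.

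Of 20145 named genes, 11799 were detected on all 4 DMSO arrays (58.6%), 1618 on some of them and 6728 on none. The depth of an array is its signal over background, and the number of arrays limits the precision. Between 46.5% and 51.4% of spots were well above background per array. For scale, genes for the sensory odorant and vomeronasal receptors were detected on all 4 arrays for 58 of 1313 (4.42%), and genes for cytosolic ribosomal proteins, which every cell uses, for 75 of 79 (94.9%). These families were chosen after the data were seen. Over the 23678 probes well above background on all 4 arrays, the median SD was 0.172 and the 95th percentile was 0.471. Common reference genes lay close to this median, with an SD of 0.13 for Actb (9.47), 0.15 for Gapdh (9.27) and 0.15 for Hprt (5.41).

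DMSO replicate 4 stood apart in a small area of its array. On that array 45 bright probes lay more than 3 log2 units below their median over the series, and 38 of these (84.4%) lay in a block of 22 rows and 8 columns of spots. No other DMSO array had any such probe. The software's own quality measures marked this array to be evaluated, and the other 3 DMSO arrays were in range. Every compound also had an array so marked, such as BDB replicate 3 with 0 such probes and DOM replicate 4 with 22. Of 6 list members detected on at least 1 array with their brightest probe in this block, 5 were low on replicate 4. Thbs2, which encodes the matrix protein thrombospondin-2, measured 4.57, 5.18 and 5.67 on replicates 1 to 3 and -2.32 on replicate 4, so that its mean was 3.27 ± 3.76 with that array and 5.14 ± 0.55 without it. Ppard, which encodes the fatty acid receptor PPARδ, measured 2.12, 2.36, 2.24 and -2.22, with a mean of 1.13 ± 2.23 over 4 arrays and 2.24 ± 0.12 over 3. Pfkfb3, named after its values were seen, Fbln1 and Notch1 were not well above background on replicate 4, nor was Notch1 on replicate 1, and they are counted as not detected on all 4. Gja1 lay in the block and was not low. Outside the block, the brightest of 3 probes of Fgfr1, the fibroblast growth factor receptor, measured 4.78, 4.58, 4.71 and 1.32, while its other probes were not low on replicate 4. The 10 named genes that varied most over the DMSO arrays (Ccdc107, Thbs2, Tmem256, Sap130, Clk2, Mrps18a, Eefsec, Gpr107, Ppard and Abl1) were all low on replicate 4. On the other 3 arrays their SD was 0.04 to 0.18, except for Thbs2. The part of the array surface in these values was not tested.

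**Figure D1:**
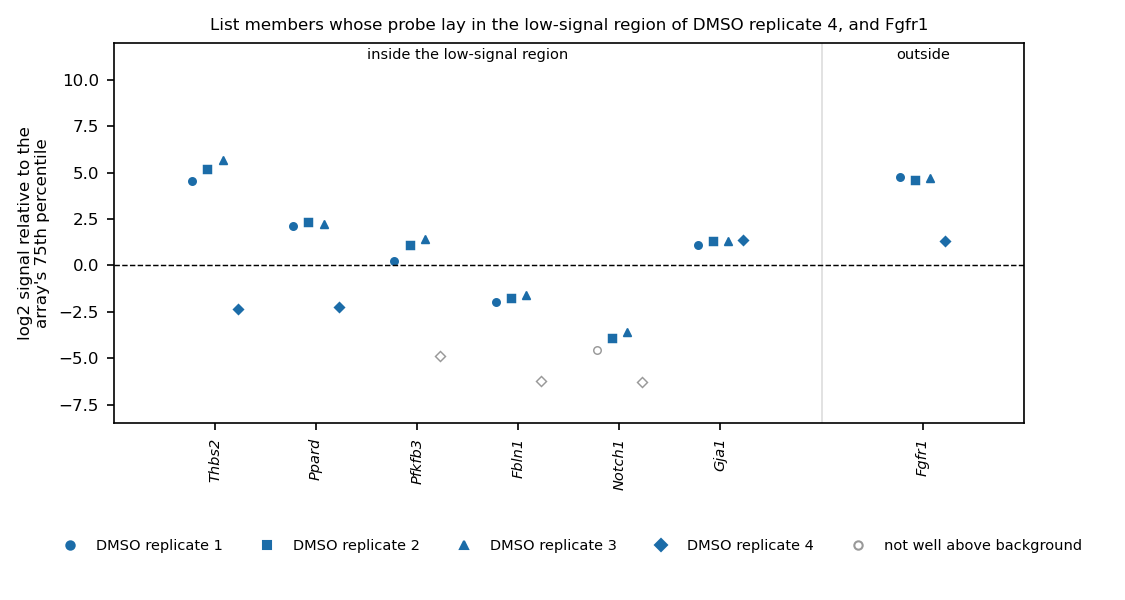
Levels on each of the 4 DMSO arrays (log2 signal relative to the array's 75th percentile, y axis) of 6 list members whose brightest probe lay in the low-signal block of replicate 4, and of Fgfr1, whose probe lay outside it. Filled symbols are well above background and open symbols are not. All but Gja1 dropped on replicate 4, the diamond.

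The genes described below belong to 31 lists of lineage, receptor, matrix and metabolic genes. Of 679 list members, 671 had a named probe, and 388 of these were detected on all 4 DMSO arrays (57.8%, against 58.6% of all named genes). A further 55 were detected on some arrays and 228 on none. Of the 228, 175 were not seen on the 19 treated arrays either. The share detected was 38.6% for lineage genes, 61.7% for receptors, 61.3% for matrix genes and 66.5% for metabolic genes. Every lineage list but that of fibroblasts lay below the share of all named genes. Of these, Sertoli cell transcription factors (53.8%) and peritubular myoid and smooth muscle genes (55.6%) lay near it.

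**Figure D2:**
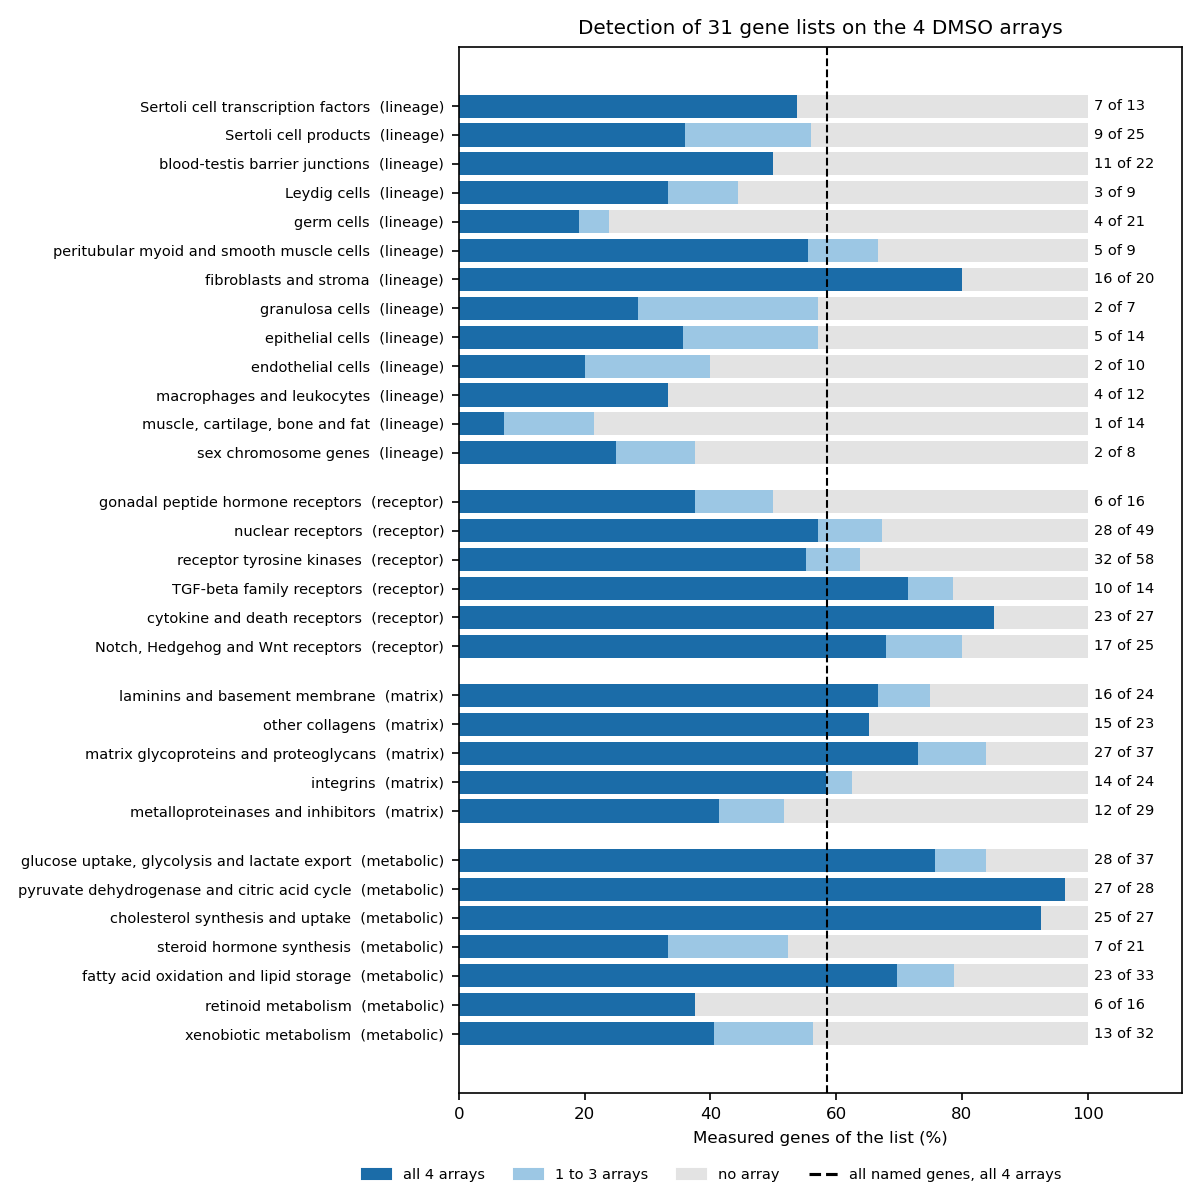
Share of the measured genes of each of the 31 lists (x axis, %) that were well above background on all 4 DMSO arrays, on 1 to 3 of them or on none, with the count on all 4 printed at the right. The dashed line is the 58.6% of all named genes. Citric acid cycle, cholesterol, cytokine receptor and fibroblast lists lay well to its right, and the germ cell list and that of muscle, cartilage, bone and fat to its left.

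Sertoli cell transcription factors were detected in part, with 7 of 13 well above background on all 4 arrays and 6 on none. This share of 53.8% was near the 58.6% of all named genes. Gata4 and Gata6, zinc finger factors of the gonadal somatic lineage, had levels of -0.15 ± 0.31 and 0.31 ± 0.15. Dmrt1, which maintains male identity in the testis, measured -1.71, -1.32, -1.19 and -1.42. Nr5a1, which encodes steroidogenic factor 1, measured -1.44, -1.16, -1.48 and -1.24. Emx2 and Etv5 were above the 75th percentile on all 4 arrays, at 1.36 ± 0.13 and 3.29 ± 0.36. Sox9, the testis-determining factor that acts downstream of SRY, was detected but dim, at -2.98, -3.05, -3.20 and -3.21. Wt1, Sox8, Gata1, Nr0b1, Lhx9 and Tcf21 were seen neither on the DMSO arrays nor on the treated arrays. Wt1, Sox8, Gata1, Nr0b1 and Tcf21 rested on 1 named probe each, and Lhx9 on 3. Of the factors that define a Sertoli cell in vivo, some were thus measurable under vehicle and others were not.

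Of 25 genes for secreted and other products of Sertoli cells, 9 were detected on all 4 arrays, 5 on some and 11 on none. Inhbb, which encodes the subunit that makes inhibin B and activin B, measured 3.33, 4.17, 4.56 and 4.41. Inha, the inhibin alpha subunit, measured -2.62, -2.33, -2.37 and -2.07, and Inhba measured 2.51 ± 0.36. Dhh, the Hedgehog ligand by which Sertoli cells signal to Leydig and myoid cells, was steady at 1.23, 1.04, 1.18 and 0.97. Ctsl, which encodes the protease cathepsin L, had a level of 7.01 ± 0.14, and Cxcl12 of 2.62 ± 0.83 with replicate 1 lowest at 1.39. Rhox5, an X-linked homeobox gene controlled by androgen in Sertoli cells, was detected at -2.82 ± 0.36, and Kitl, the ligand that germ cells need through KIT, at -2.48 ± 0.54. Amh, which encodes anti-Müllerian hormone, was on no DMSO array, nor were the transferrin gene Trf, Gdnf, Shbg, Fgf9, Aard, Cst12, Vnn1, Fgf2, Bmp4 and Lif. The clusterin gene Clu was detected on 3 of the 4 arrays.

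Of 22 genes for junctions of the blood-testis barrier, 11 were detected and 11 were on no array. Tjp1, which encodes a cytoplasmic plaque protein of tight junctions, measured 2.65 ± 0.07. F11r, which encodes junctional adhesion molecule A, measured 4.15 ± 0.11. The transmembrane tight junction genes Cldn11, Cldn3, Cldn5 and Ocln were on no array of the series. Of cadherins, Cdh2, which encodes N-cadherin, the cadherin of Sertoli cells, was detected by both of its probes at 4.11, 4.21, 4.17 and 3.91, and Cdh1, which encodes E-cadherin, on no array. Gja1, the gap junction protein connexin 43, measured 1.28 ± 0.12, Ctnnb1 4.13 ± 0.11 and Nectin2 3.01 ± 0.08.

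**Figure D3:**
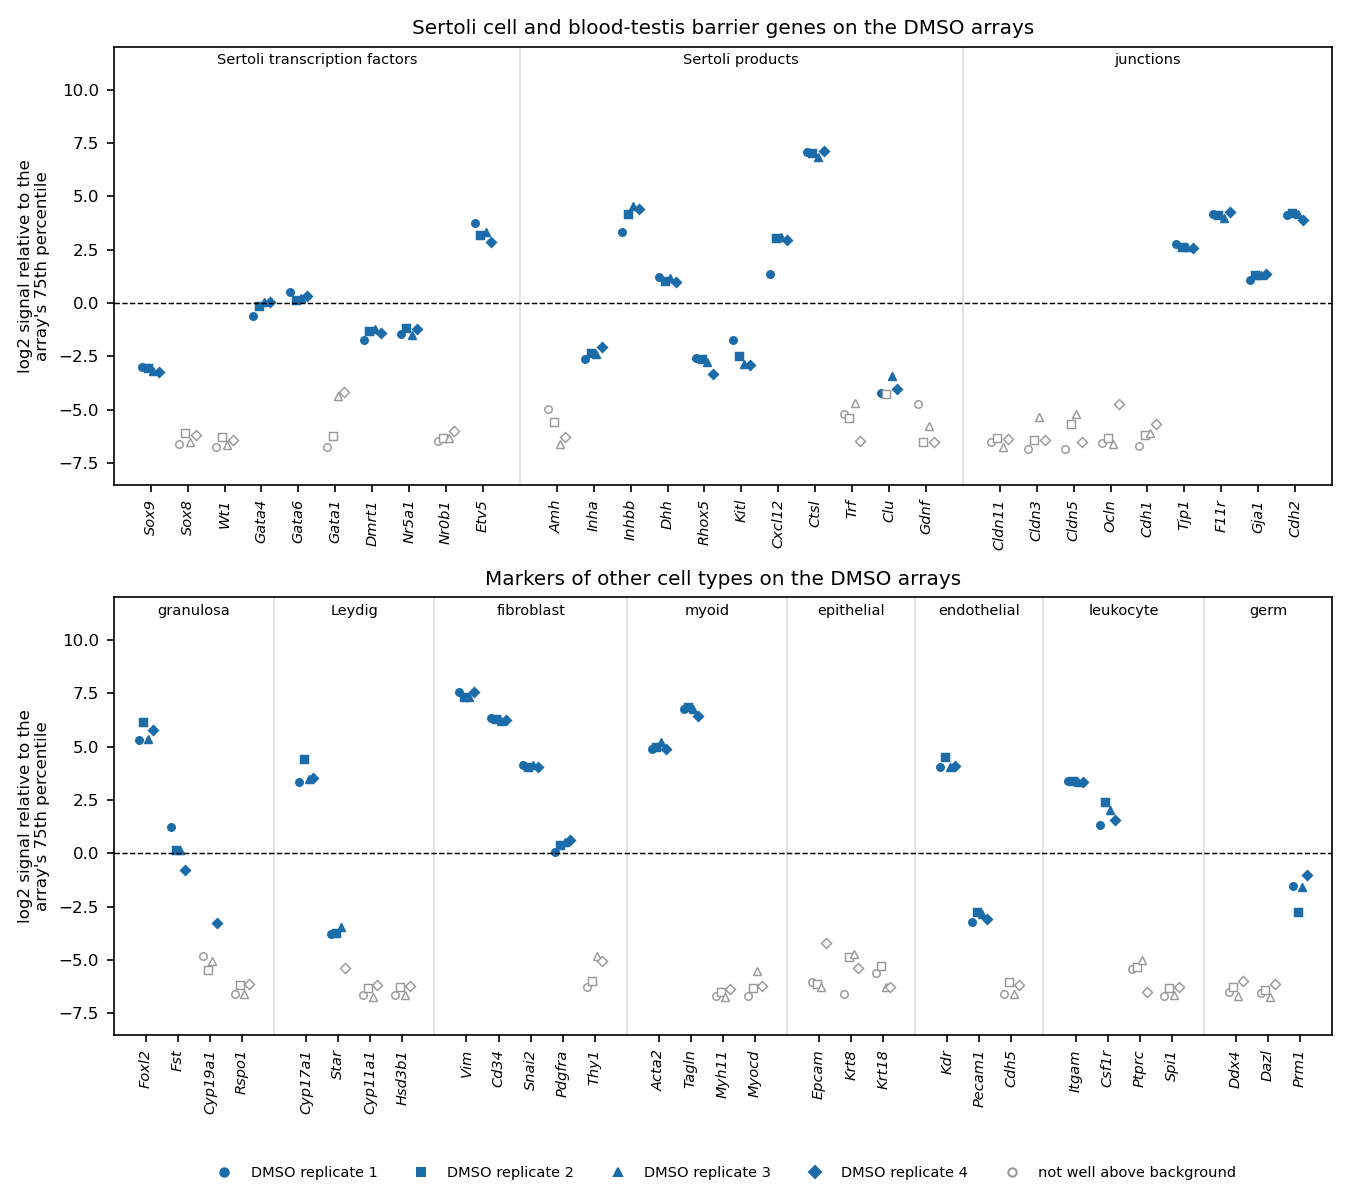
Levels on each DMSO array (log2 signal relative to the array's 75th percentile, y axis) of Sertoli cell and barrier genes (top) and of markers of other cell types (bottom). Filled symbols are well above background, open symbols are not, and the dashed line is the 75th percentile. Genes should be read against the line and not against each other. Foxl2, Cyp17a1, Kdr and Itgam lay above the line on all 4 arrays, and Wt1, Amh and the claudins were open on all 4.

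Markers of other gonadal cells were present in an uneven way. Foxl2, the transcription factor that maintains the identity of granulosa cells in the ovary, was well above background on all 4 arrays with both of its probes, at 5.32, 6.14, 5.36 and 5.78. Fst, which encodes the activin-binding protein follistatin, measured 1.24, 0.14, 0.16 and -0.78, with more spread than most probes. The other granulosa genes were not detected on all 4. Cyp19a1, which encodes aromatase, was seen on 1 array and Wnt4 on 2, and Rspo1, Hsd17b1 and Nr5a2 on none. Cyp17a1, the steroid 17-hydroxylase of Leydig and theca cells, measured 3.34, 4.41, 3.47 and 3.50 on 1 probe. Cyp11a1, which starts steroid synthesis from cholesterol, Hsd3b1, Hsd3b6, Hsd17b3 and the luteinizing hormone receptor gene Lhcgr were on no array, and Star was on 3 of the 4. In all, 2 of 7 granulosa genes and 3 of 9 Leydig genes were detected.

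Germ cell genes were detected for 4 of 21 members. The germ cell markers Ddx4, Dazl, Stra8, Kit, Pou5f1, Zbtb16, Gfra1 and Sycp3 were on no DMSO array. Prm1, which encodes a protamine that packs sperm DNA, measured -1.53, -2.77, -1.60 and -1.02. Nanos3 (0.74 ± 0.13), Prm2 (-2.42 ± 0.74) and Tnp1 (-3.16 ± 0.27) completed the 4, and were named after their values were seen. Prm1 and Prm2 had an SD of 0.74 each, beyond the 95th percentile of all probes.

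Fibroblast and stromal genes were the lineage list detected most often, with 16 of 20 on all 4 arrays. Vim, the intermediate filament gene of mesenchymal and Sertoli cells alike, measured 7.57, 7.33, 7.31 and 7.55. Cd34 measured 6.26 ± 0.05, S100a4 6.97 ± 0.26 and Ly6a, which encodes the stem cell antigen SCA-1, 3.36 ± 0.09. The mesenchymal transcription factor genes named here were above the 75th percentile on every array, with Snai2 at 4.08 ± 0.05, Prrx1 at 2.68 ± 0.14, Zeb1 at 1.60 ± 0.20 and Twist1 at 0.83 ± 0.10. Pdgfra measured 0.40 ± 0.25 and Pdgfrb -1.78 ± 0.31. Thy1 was on no DMSO array. Of peritubular myoid and smooth muscle genes 5 of 9 were detected (55.6%, beside 58.6% of all named genes). Acta2, smooth muscle actin, measured 5.0 ± 0.16 and Tagln 6.70 ± 0.19, while Myh11 and Myocd, which mark differentiated smooth muscle, were on no array of the series.

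Epithelial and endothelial markers were detected for 35.7% and 20% of measured members, beside 58.6% of all named genes. Epcam, Krt8, Krt18 and Krt19 were on no DMSO array, and 5 of 14 epithelial genes were detected, all of them below the 75th percentile. These were Esrp1 (-2.57 ± 0.28) and Grhl2 (-3.89 ± 0.16), regulators of epithelial splicing and transcription, and, named after their values were seen, the keratin genes Krt5 (-3.46 ± 0.19) and Krt14 (-2.52 ± 0.28) and the claudin gene Cldn7 (-1.60 ± 0.14). Esrp1, Grhl2 and Krt5 were each detected by 1 of 2 probes. Of the endothelial list 2 of 10 were detected. Kdr, a receptor for vascular endothelial growth factor, measured 4.02, 4.53, 4.05 and 4.07 on its brightest probe, and its other probe was on no array. Pecam1 measured -2.98 ± 0.21, and Cdh5, Tek, Emcn, Vwf and Erg were on no array. Among 12 leukocyte genes 4 were detected. Itgam, an integrin of myeloid cells, was seen with all 3 of its probes at 3.38, 3.39, 3.33 and 3.32. Csf1r, the receptor for macrophage growth factors, measured 1.34, 2.38, 2.04 and 1.57, and Cd14 0.48 ± 0.18. Cd3e, named after its values were seen, measured 1.12 ± 0.52. Ptprc, the pan-leukocyte gene, Spi1, Adgre1 and Lyz2 were on no array. In a bulk sample, fewer cells of a type and less RNA per cell cannot be told apart, and whether these RNAs came from all cells or a few was not tested. Of regulators and products of muscle, cartilage, bone and fat 1 of 14 was detected. Runx2 was that gene, at -3.04 ± 0.49, and by 1 of its 2 probes. Myod1, Myog, Sp7, Col2a1, Fabp4 and Cebpa were on no array. Of sex chromosome genes the Y-linked Ddx3y (-1.87 ± 0.47) and Eif2s3y (-0.19 ± 0.20) were detected. Sry, Kdm5d and Uty were on no DMSO array, and Xist, the RNA of the inactive X chromosome, was on 1.

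Receptors set which signals a cell can hear. The gonadotropin and anti-Müllerian hormone receptors Fshr, Lhcgr and Amhr2, together with Gnrhr, were on no array of the series. Prlr, the prolactin receptor, was detected at -1.86, -1.57, -1.73 and -1.80 by 1 of its 2 probes. Ghr, the growth hormone receptor, was detected by both of its probes at 2.31 ± 0.15, and Oxtr, the oxytocin receptor, at -2.23 ± 0.28. In all, 6 of 16 gonadal peptide hormone receptors were detected.

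Nuclear receptors, transcription factors that bind steroids, retinoids, fatty acids and other small molecules, were detected for 28 of 49 genes. This share of 57.1% was near the 58.6% of all named genes. Both estrogen receptor genes were detected, with Esr1 at 0.21, 0.52, 0.77 and 0.30 and Esr2 at 1.08, 1.09, 1.02 and 0.85. Pgr, the progesterone receptor, measured -2.49 ± 0.47, and Nr3c1, the glucocorticoid receptor, 3.78 ± 0.09. The mineralocorticoid receptor gene Nr3c2 was on 1 array. Of the retinoic acid receptors Rara (2.75 ± 0.16) and Rarg (4.68 ± 0.13) were detected and Rarb was on no DMSO array. Rxra, Rxrb and Rxrg, the partners of many of these receptors, measured -1.17 ± 0.14, 5.12 ± 0.14 and 3.31 ± 0.15. The PPAR genes, which encode receptors for fatty acids, were all detected, Ppara at 0.08 ± 0.17 by 1 of its 3 probes, Pparg at -2.17 ± 0.16 and Ppard at the value given above. Vdr was dim at -3.25 ± 0.20. The xenobiotic receptor genes Nr1i2 and Nr1i3 were on no array and on 1 array.

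Of 58 receptor tyrosine kinase genes, 32 were detected (55.2%, beside 58.6% of all named genes). The epidermal growth factor receptor Egfr (1.65 ± 0.23, with all 3 probes) and Erbb2 (0.71 ± 0.07) were detected, Erbb3 was on 1 array and Erbb4 on none. Igf1r measured 2.38 ± 0.13 and Insr -0.60 ± 0.18. Axl, Tyro3 and Mertk, the TAM receptors by which Sertoli cells clear dying germ cells, were all detected, at 5.22 ± 0.23, 3.69 ± 0.11 and -2.33 ± 0.13. Ddr2, a collagen receptor, measured 4.73 ± 0.22. Kit and Ret, receptors of germ cells for Sertoli cell ligands, were on no array. Fgfr1 measured 3.85 ± 1.69 with replicate 4 and is described above. Fgfr2, Fgfr3 and Fgfr4 were below the 75th percentile, at -1.93 ± 0.16, -1.17 ± 0.03 and -2.20 ± 0.51.

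Receptors of the TGF-beta family were detected for 10 of 14 genes. Tgfbr2 measured 5.61 ± 0.22 and Tgfbr1 -0.03 ± 0.21. The activin type II receptors Acvr2a and Acvr2b, through which the products of Inhba and Inhbb act, were at -1.66 ± 0.21 and 1.52 ± 0.15. Bmpr1a and Bmpr2, for bone morphogenetic proteins, were at 2.04 ± 0.17 and 0.25 ± 0.26. The list of cytokine and death receptors, which also holds Toll-like receptors and the ligand gene Fasl, was detected for 23 of 27 members. Tnfrsf1a, the main receptor for tumour necrosis factor, measured 4.85 ± 0.07 with both of its probes, and Tnfrsf1b was on no array. Fas, the death receptor, was detected at -1.92 ± 0.11 and its ligand gene Fasl was not, on any array of the series. Il6st, the shared receptor of the interleukin 6 family, and its partners Il6ra, Lifr and Osmr were all detected, at 3.33 ± 0.15, 1.71 ± 0.24, -0.16 ± 0.03 and 2.56 ± 0.09. Interferon receptors Ifnar1, Ifnar2, Ifngr1 and Ifngr2 were all detected, at levels of 0.11 to 2.85. Of Notch, Hedgehog and Wnt receptors 17 of 25 were detected. Smo, the Hedgehog signal transducer, measured 5.72 ± 0.07. Ptch1, the Hedgehog receptor that is also a common target of the pathway, measured -2.70, -3.05, -2.25 and -3.40. Lrp5 and Lrp6, the Wnt co-receptors, measured 2.30 ± 0.07 and 2.76 ± 0.19. Notch2 was at 2.43 ± 0.23 and Notch3 at -3.05 ± 0.45.

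**Figure D4:**
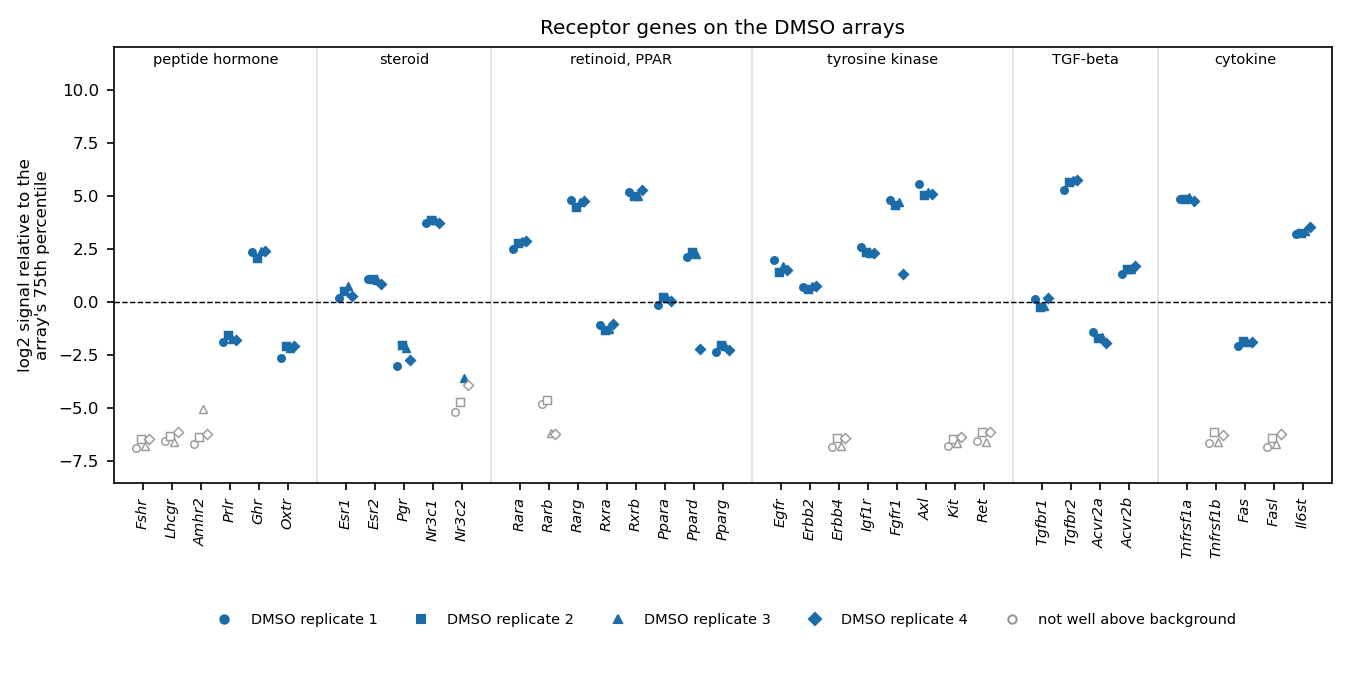
Levels on each DMSO array (log2 signal relative to the array's 75th percentile, y axis) of receptor genes in 6 classes, with filled symbols well above background and open symbols not. Esr1, Esr2 and the 3 PPAR genes were filled on all 4 arrays, and Fshr, Lhcgr, Amhr2, Kit and Ret were open on all 4. Ppard and Fgfr1 each had replicate 4 far below the rest.

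The matrix genes of the line comprised a basement membrane set and a set of stromal proteins. Of 24 basement membrane genes, 16 were detected. Laminins are trimers of an alpha, a beta and a gamma chain. The beta and gamma chains Lamb1 (5.42 ± 0.08), Lamb2 (1.91 ± 0.13) and Lamc1 (4.24 ± 0.14) were detected, and of the alpha chains Lama5 was detected at -1.58 ± 0.16 and Lama3, named after its values were seen, at -1.09 ± 0.09, Lama2 was on 1 array, and Lama1 and Lama4 were on no array of the series. Collagen IV, the network of every basement membrane, was detected as Col4a1 (4.21 ± 0.12), Col4a2 (4.51 ± 0.10), Col4a5 (2.86 ± 0.07) and Col4a6 (-1.54 ± 0.24), and Col4a3 was on no array. Nid1, Hspg2 and Agrn measured 2.57 ± 0.09, 3.40 ± 0.15 and 4.00 ± 0.22. Sparc, which encodes a collagen-binding protein, was at 9.13 ± 0.17 by its brightest probe.

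Of 23 other collagens, 15 were detected. Col1a1 measured 6.75, 7.24, 7.29 and 7.03, and Col1a2 8.48, 8.82, 8.90 and 8.86. Col3a1 measured 4.38, 5.29, 5.40 and 5.27, with replicate 1 apart from the other 3. The fibril and filament collagens Col5a1 and Col6a1 measured 4.66 ± 0.30 and 5.62 ± 0.44. In 13 of the 15 detected collagens replicate 1 was the lowest array (86.7%), against 28.3% of all detected genes. Over all matrix genes replicate 1 was lowest for 47 of 84 (56%), and over metabolic genes for 35 of 129 (27.1%). Between these lay receptors with 52 of 116 (44.8%) and lineage genes with 25 of 71 (35.2%). Some smaller lists were also mostly lowest there, such as gonadal peptide hormone receptors with 5 of 6 (83.3%). No test of these shares was made. Replicates 1 and 4 were each the only DMSO array of their slide, and replicates 2 and 3 shared a slide. Whether the slide had a part in this was not tested.

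Of 37 matrix glycoproteins and proteoglycans 27 were detected. Fn1, fibronectin, measured 8.30, 8.49, 8.35 and 8.63. Thbs1, thrombospondin-1, measured 5.01 ± 0.50, Bgn, biglycan, 3.01 ± 0.25 and Dcn, decorin, 3.90 ± 0.36. Ogn, which encodes osteoglycin, measured 4.53, 5.62, 5.76 and 5.56, again with replicate 1 lowest. Mgp, an inhibitor of calcification, measured -0.70, 0.49, 0.42 and 0.43. Aspn, asporin, was detected but dim at -3.55, -2.85, -2.05 and -2.83. Postn and Lum were on no DMSO array. Integrins, the receptors for these proteins, were detected for 14 of 24 genes (58.3%, beside 58.6% of all named genes). Itgb1 measured 4.22 ± 0.05, Itga6, a laminin receptor chain, 4.55 ± 0.26, Itga5, the fibronectin receptor chain, 0.58 ± 0.49, and Itgb5 4.98 ± 0.15. The collagen receptor chains Itga1, Itga2 and Itga11 were on no DMSO array.

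Of 29 genes for enzymes that cut matrix and for their inhibitors, 12 were detected. Mmp2, gelatinase A, measured 3.79, 4.39, 4.43 and 4.59, and Mmp14, the membrane protease that activates it, 0.52 ± 0.29. Mmp3, Mmp9 and Mmp13 were on no array of the series. Timp1 and Timp2 measured 5.74 ± 0.31 and 7.33 ± 0.13. Timp3 measured -1.65, -3.35, -2.99 and -3.62, with an SD of 0.87. Plat and Plau, the plasminogen activators, measured 2.56 ± 0.20 and -0.31 ± 0.24.

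**Figure D5:**
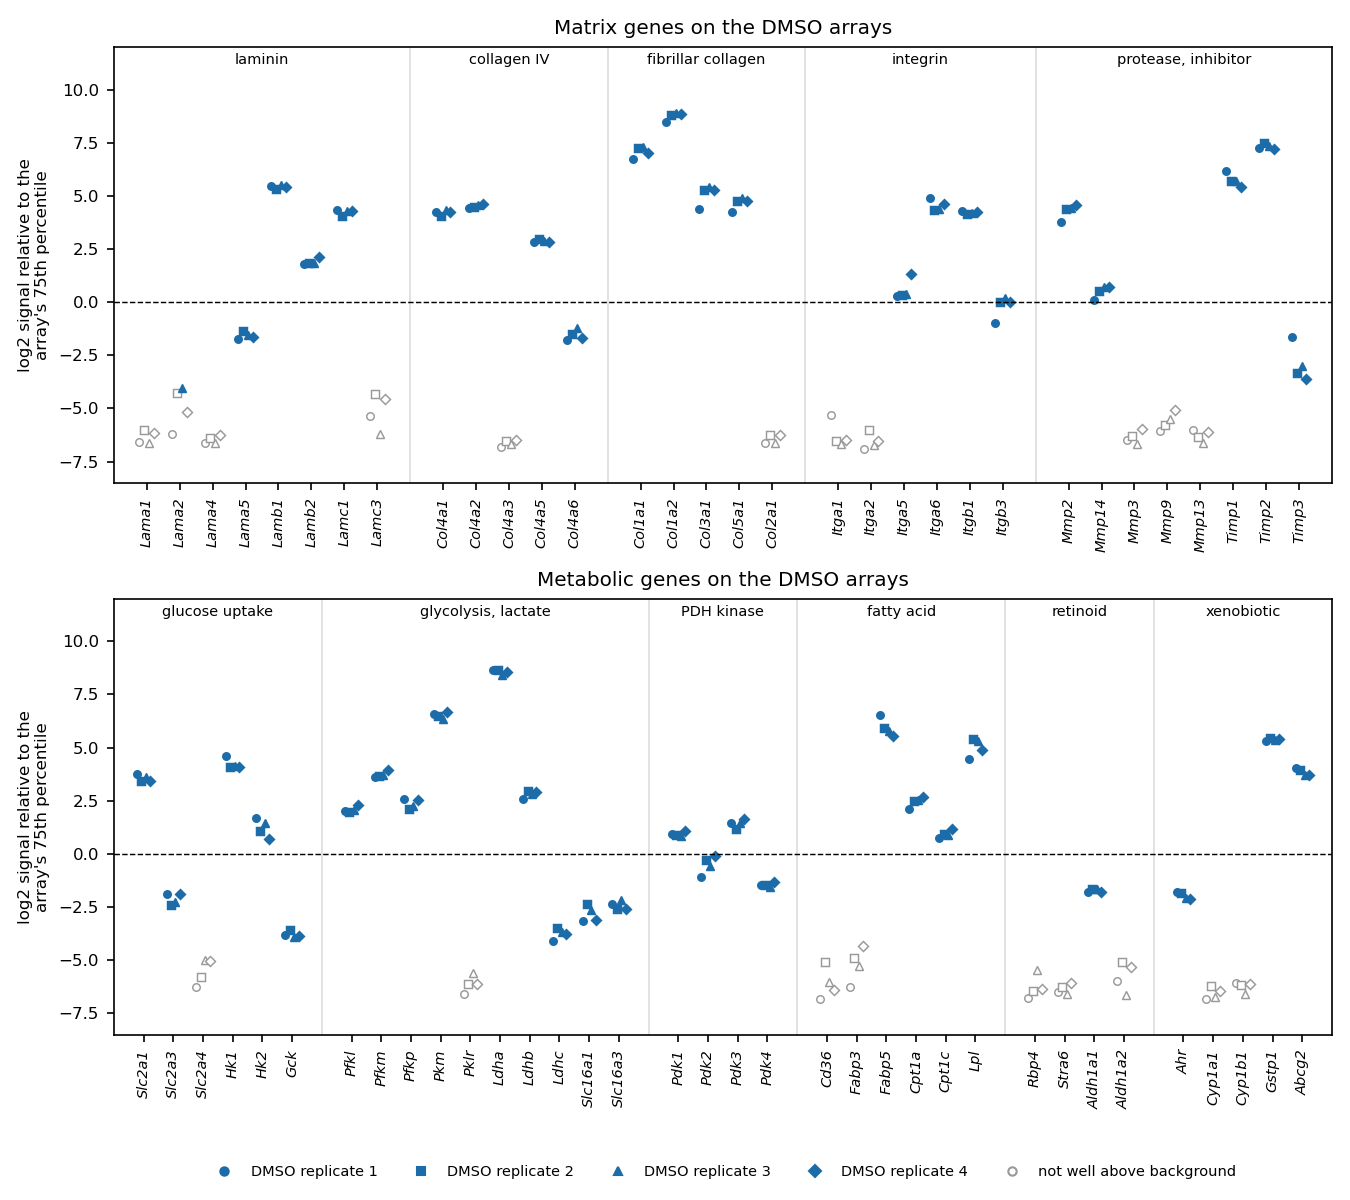
Levels on each DMSO array (log2 signal relative to the array's 75th percentile, y axis) of matrix genes (top) and metabolic genes (bottom), with filled symbols well above background and open symbols not. Lama1, Lama4, Mmp3, Mmp9, Mmp13, Cd36 and Cyp1a1 were open on all 4 arrays. Replicate 1, the circle, was the lowest for Col1a1, Col1a2, Col3a1 and Col5a1.

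Glucose uptake, glycolysis and lactate export genes were detected for 28 of 37, and not every isozyme of a step was among them. Slc2a1, which encodes the glucose carrier GLUT1, measured 3.56 ± 0.17 and Slc2a3 -2.10 ± 0.25, and the insulin-regulated carrier gene Slc2a4 was on no DMSO array. Hk1 and Hk2, hexokinases, were at 4.23 ± 0.24 and 1.23 ± 0.44. Pfkl, Pfkm and Pfkp were all detected, at 2.09 ± 0.15, 3.74 ± 0.16 and 2.37 ± 0.22. Aldoa, Pgk1 and Eno1 were above the 75th percentile on all arrays, at 8.58 ± 0.10, 7.64 ± 0.20 and 7.57 ± 0.10. Pkm measured 6.53 ± 0.15 and the liver isozyme gene Pklr was on no array. Ldha, the subunit of lactate dehydrogenase that favours lactate, measured 8.67, 8.63, 8.40 and 8.57 with all 3 of its probes detected. Ldhb was at 2.82 ± 0.17 and the germ cell gene Ldhc at -3.74 ± 0.26 on 1 of 2 probes. The lactate carriers Slc16a1 and Slc16a3 were detected at -2.80 ± 0.37 and -2.43 ± 0.21. Bsg, which encodes their shared chaperone basigin, measured 3.86 ± 0.08. The germ cell isozyme gene Gapdhs was on no array and Pgk2 was on 2.

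All but 1 of 28 pyruvate dehydrogenase and citric acid cycle genes were detected, and the exception was Pdha2, the germ cell form. Pdha1 measured 2.88 ± 0.25. The 4 kinases that switch the complex off were all detected, with Pdk1 at 0.93 ± 0.09, Pdk2 at -0.51 ± 0.43, Pdk3 at 1.42 ± 0.18 and Pdk4 at -1.44 ± 0.10. Cholesterol synthesis and uptake genes were detected for 25 of 27. Hmgcs1, an early enzyme of the pathway, measured 4.97, 5.28, 5.17 and 4.92. Sqle, which encodes squalene epoxidase, measured 6.28 ± 0.12. Srebf2, the main regulator of the pathway, measured 1.89 ± 0.23 and Srebf1 -2.02 ± 0.06. Abca1, which exports cholesterol, was on no array of the series, and Idi2 on no DMSO array.

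By contrast, genes that turn cholesterol into hormones were detected for 7 of 21. Besides Cyp17a1, Srd5a1 (1.72 ± 0.20), a steroid 5-alpha-reductase, and the electron carriers Fdx1 (4.38 ± 0.12), Fdxr (1.54 ± 0.24) and Por (4.78 ± 0.13) were detected, as were Srd5a3 and Cyp21a1, named after their values were seen. Fatty acid oxidation and lipid storage genes were detected for 23 of 33. The mitochondrial entry enzymes Cpt1a (2.45 ± 0.24), Cpt1c (0.92 ± 0.18) and Cpt2 (3.26 ± 0.09) were detected, and Cpt1b was on 3 arrays. Lpl, lipoprotein lipase, measured 4.46, 5.38, 5.29 and 4.89, and Angptl4, a secreted inhibitor of that lipase, 3.21, 4.30, 4.25 and 3.71. Fabp5 measured 5.95 ± 0.44, and Fabp3, Fabp4 and Cd36 were on no DMSO array. Plin2, the coat protein of most lipid droplets, measured 3.98 ± 0.17 and the fat cell gene Plin1 was on no array.

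Retinoid genes were detected for 6 of 16. Crabp2, a cytosolic binding protein, measured 0.54 ± 0.07, and Dhrs3, which turns retinal back into retinol, 1.00 ± 0.32. Of the enzymes that make retinoic acid, Aldh1a1 was detected at -1.72 ± 0.08, and Aldh1a2 and Aldh1a3 were on no DMSO array. Rbp4, Stra6, Lrat and Cyp26a1 were on no array of the series. Xenobiotic genes were detected for 13 of 32. Ahr, the receptor for dioxin-like compounds, measured -1.95 ± 0.16 by 1 of its 2 probes, and Cyp1a1, Cyp1a2 and Cyp1b1 were on no array. Gstp1 and Gstm1, glutathione transferases, measured 5.39 ± 0.06 and 2.84 ± 0.22, Gsta4 -1.86 ± 0.29 and Nqo1 -0.23 ± 0.28. Of drug exporters, Abcg2 measured 3.85 ± 0.18 and Abcc1 1.48 ± 0.27. Of lipases and esterases, Lipa measured 2.46 ± 0.17, Ces1d was on 1 array and Ces2a on none, and Lipe, hormone-sensitive lipase, was on 3 of the 4.

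The treated arrays show how far this baseline moved after 48 hr. The 5 comparisons share the same 4 DMSO arrays and each was tested on its own by limma with Benjamini-Hochberg adjustment, and genes past both an adjusted p of 0.05 and 1.5-fold were called. With MEHP, 1.68% of all tested genes were called, and of the tested list members 32 of 394 (8.12%), 25 higher and 7 lower. With DINCH these were 8.26% and 52 of 393 (13.2%), 30 higher and 22 lower. With DOM they were 20.5% and 125 of 400 (31.2%), 91 higher and 34 lower. The lists were written with earlier results on these compounds known, so their shares are no independent evidence. Single arrays weighed on the smaller counts, which were 21 list members with MEHP without MEHP replicate 2 or 4, and with DINCH 26 without DMSO replicate 3, 29 without DINCH replicate 4 and 32 without DINCH replicate 1. With BDB and DOS 0% of tested genes were called (0 of 11960 and 0 of 11912), although 3493 of 24270 and 1722 of 24145 tested probes had an unadjusted p below 0.05. Each slide held arrays of DMSO and of other groups. The DMSO, DOM and DOS arrays lay at positions 2 and 4 across a slide and the MEHP, DINCH and BDB arrays at positions 1 and 3, so for the last 3 the position and the compound cannot be told apart.

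Most list members kept their state of detection, which was not counted over all named genes. Of the 388 list members detected on all DMSO arrays, 372 to 382 were also detected on every array of each treated group. Of the 228 on no DMSO array, 206 to 218 were on no array of a given treated group. Mst1r, a receptor tyrosine kinase, and Notch4 were on no DMSO array and on all 4 DOM arrays, at levels there of -3.44 ± 0.17 and -3.33 ± 0.24. They were at least 1.89-fold and at least 2.05-fold higher with DOM. Such a limit sets the mean of the bright group against the lowest level marked well above background on each dim array, or the probe's own value where that was higher. In the other direction, Aspn was on no MEHP array, at least 3.2-fold below DMSO. Il1rap, Ldhc, Fzd4 and Grhl2 were on no DOM array, at least 2.12-fold, 1.72-fold, 1.71-fold and 1.54-fold lower. Il1rap and Fzd4 were named after their values were seen. All of these genes were picked for the contrast shown. Their probes qualified for testing only through the group where they were detected, so no p-value is given for these differences with MEHP and DOM. Fzd4 was also on no DOS array, but no difference from DMSO was called (limma adjusted p = 0.703). The limit computed from the means was 1.3-fold there.

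The list members with the largest called changes included genes from every class. Pdk4 was at -1.44 ± 0.10 with DMSO and at 2.17 with MEHP and 2.02 with DOM, changes of 3.61 ± 0.08 (SE, limma adjusted p = 1.56e-07) and 3.46 ± 0.23 (SE, adjusted p = 0.000108) on the log2 scale. Angptl4 rose by 3.27 with MEHP and 3.02 with DOM and fell by 2.72 with DINCH (limma adjusted p = 0.00175, 0.000165 and 0.00623). Mgp, at 0.16 ± 0.57 with DMSO, was at -3.00 with DINCH and 3.65 with DOM (limma adjusted p = 0.003 and 0.000238). Aldh1a1 was higher by 1.85 with MEHP and 1.33 with DINCH, and Gsta4 by 2.77 with DOM (limma adjusted p = 3.65e-05, 0.00508 and 0.000355). Cd34, steady at 6.26 ± 0.05 on the DMSO arrays, was at 4.12 with DOM, lower by 2.15 ± 0.14 (SE, limma adjusted p = 0.000108). Of the Sertoli cell transcription factors, Etv5 measured 1.64 with DINCH against 3.29 ± 0.36 with DMSO, a change of -1.65 ± 0.39 (SE, limma adjusted p = 0.0285). These changes were picked under the rule that every treated array lay beyond every DMSO array, so that separation is not a result.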

How the data were processed

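The authors extracted the scanned spots with Agilent Feature Extraction, which subtracted background and flagged outlier spots, and they deposited the resulting linear intensity of each spot. A deposited matrix of log2 values, which the authors had percentile-shifted and centred on the median of all samples, served as an alternative only. For the levels, log2 intensity (floored at 1) was expressed relative to the 75th percentile of the 59305 non-control spots. Outlier spots were dropped, and repeated spots were averaged per probe. No spot was saturated. A RefSeq table gave names to 26582 of 55681 probes by accession.

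A probe was detected on an array when more than 50% of its spots carried the flag for well above background. The list members and lists were chosen with earlier results of these data known. Genes named are key list members, 3 reference genes, the 10 with the largest SD and members gained with a compound. Also named are up to 5 list members with the largest called changes in each direction per compound. For these, every treated array had to lie beyond every DMSO array. Others are marked as named after their values were seen. Some key members are counted in their lists but not reported here by name.

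Each compound was fitted against DMSO alone with limma 3.58.1 in R 4.3.3. Tested probes were flagged, and not under the array's 20th percentile, on all arrays of DMSO, of the compound or of both. In simulated data for MEHP (24170 probes, 200 changed), 76% of changes of 1 log2 unit and 98% of changes of 2 were recovered, with 2 and 3 false calls. The simulated noise was independent between probes and arrays. Effects shared by a slide, a pair or an array were not in it, so false calls from them could not appear. The study's methods call the arrays biological replicates. Deviations of same-numbered arrays correlated at 0.162 or more in every pair for DINCH, BDB and DOS, so their numbers may pair the samples. All of these but replicate 3 of DINCH and of DOS shared a slide with the DMSO array of the same number. There, a pairing of samples and a shared slide cannot be told apart. The main counts came from a fit without pairs, and a replicate block was an alternative. Alternatives were other normalizations, background correction, filters, detection rules, blocks and leaving out single arrays.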

Additional observations from a re-analysis of the deposited data

Results flagged for a closer look

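Of 202 genes named with a level, 30 (14.9%) had 1 DMSO array apart from the other 3 by more than Dixon's 95% critical value allows for 4 samples, where chance alone marks about 5% of groups. The 202 include the 10 genes with the largest spread, which were chosen for that spread.

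Replicate 4 was the array apart for 15 of them. The 10 most variable genes were all among these, with levels there of -1.26 for Abl1, -1.65 for Ccdc107, -3.77 for Clk2, -3.42 for Eefsec, -3.12 for Gpr107, -2.32 for Mrps18a, -2.22 for Ppard, -3.37 for Sap130, -2.32 for Thbs2 and -2.12 for Tmem256. On the other 3 arrays Ccdc107 lay between 6.07 and 6.15 and Clk2 between 2.30 and 2.66. Fgfr1 was at 1.32 on replicate 4, against 4.58 to 4.78. Ddx3y at -2.58 and Hspg2 at 3.19 were also lowest there. Itga5 at 1.31 and Nanos3 at 0.93 were highest there.

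Replicate 1 was the array apart for 11 genes. It was the lowest for Col3a1 (4.38), Cxcl12 (1.39), Dhrs3 (0.53), Fgfr4 (-2.96), Gja1 (1.098), Mgp (-0.70), Ogn (4.53) and Oxtr (-2.64). It was the highest for Hk1 (4.58), Hprt (5.62) and Tjp1 (2.75). For Hprt, a common reference gene, the other 3 arrays lay between 5.32 and 5.36.

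Replicate 2 was the highest for Cyp17a1 (4.41, against 3.34 to 3.50) and Kdr (4.53, against 4.02 to 4.07) and the lowest for Ghr (2.08). Replicate 3 was the lowest for Nectin2 (2.88).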

How the results depend on the processing

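The count of genes detected on the DMSO arrays ranged from 11794 to 13588 under the other detection rules and without any 1 DMSO array. Of the 31 lists, 25 stayed within 1.5 times their count under every setting tried. Where 1 DMSO array sufficed, detected Sertoli cell products were 14, granulosa cells 4, epithelial cells 8, endothelial cells 4, muscle, cartilage, bone and fat 3 and steroid hormone synthesis 11. With the weaker flag of a positive and significant signal they were 15, 5, 8, 4, 2 and 12. Leaving out the low-signal block of replicate 4, chosen after seeing the data, gave 11816 genes. Of 229 key genes, 154 moved in level by more than their SD under normexp background correction (median shift -0.16), 1 with outlier spots kept and 0 under quantile normalization. The median SD between arrays was 0.145 to 0.186 without 1 array.

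Counts of called list members depended more on the settings. Without the filter on dim probes, when more probes were tested, they were 3 with MEHP and 6 with DINCH, and with detection on any 1 array 27 with DINCH. BDB had 1 under normexp, with the slide as a block and with all 6 groups fitted together. The slide block otherwise gave 35 (MEHP), 65 (DINCH), 131 (DOM) and 0 (DOS). No slide was tested alone, since it held at most 2 arrays of a group. Leaving out each array in turn gave 21 to 36 with MEHP, 26 to 50 with DINCH, 113 to 130 with DOM, 0 with BDB and 0 to 1 with DOS (1 without DOS replicate 3). The authors' table of values, also chosen after seeing the data, gave 32 (MEHP), 51 (DINCH), 124 (DOM), 0 (BDB) and 0 (DOS). The causes were not tested.

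With the replicate block the counts were 44 (MEHP), 61 (DINCH), 130 (DOM), 0 (BDB) and 0 (DOS), none of them moved by over 1.5 times. For MEHP and DOM a pairing by number was less clear, since the lowest correlation of same-numbered arrays was -0.159 and 0.063. Both values came from replicate 2, which for MEHP and DOM lay on another slide than DMSO replicate 2. The other same-numbered arrays of MEHP and DOM correlated at 0.284 to 0.533.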

Other observations

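Replicate 1 differed from the other DMSO arrays in opposite directions in different gene groups. It was the lowest array for 11 of 17 detected Notch, Hedgehog and Wnt receptors (64.7%) and for 3 of 27 citric acid cycle genes (11.1%), against 28.3% of all detected genes. It was the highest for 13 of 25 cholesterol synthesis and uptake genes (52%), against 35% of all detected genes. These groups were picked after the counts for all lists were seen, and no test was made. In the treated cells 16 of the 25 cholesterol genes were called higher with MEHP, 6 with DINCH and 20 with DOM, and none lower, against 1.68%, 8.26% and 20.5% of all tested genes called in either direction. This list too was picked after its counts were seen.

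The closest pair of DMSO arrays was replicates 2 and 3, which shared a slide, with a median absolute difference of 0.142 over probes detected on all 4. The farthest was replicates 1 and 2, at 0.229. The median SD was 0.255 in the dimmest tercile of probes, 0.168 in the middle and 0.126 in the brightest. Probes well above background on 1 DMSO array, over 2 log2 units above the other 3 and seen on at most 3 arrays of the series, numbered 78, 30, 354 and 339 on replicates 1 to 4. Of 3907 detected genes with over 1 probe, 685 had another probe that was on no DMSO array, so for these genes detection rested on which probe was read.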
